A study of Danio rerio with 4 samples.

Results

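Interferon regulatory factors (IRFs) are transcription factors that bind DNA through a conserved amino-terminal domain with a repeat of tryptophan residues. They carry signals from nucleic acid sensors and interferon receptors to the promoters of interferons and interferon-stimulated genes, and some members direct the choice between blood cell lineages. The genes were taken by symbol from the deposited count table, as every gene whose symbol, without a copy number, is irf followed by a number and an optional a or b. The rule found 13 genes among the 32434 of the table, and all 13 passed the filter on low counts, which required more than 5 reads summed over the libraries. The genes that encode IRF2-binding proteins fall outside the rule. No sequence of these genes was at hand, so none is shown.

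The libraries hold polyadenylated RNA of progenitor cells (HSPCs) taken by cell sorting from kidney marrow, the organ in which adult zebrafish form blood. The mutant group has 2 libraries from fish of a stable tet2m/m line, in which a small germline deletion made with zinc finger nucleases introduces stop codons and disrupts the catalytic activity of Tet2, the dioxygenase that oxidizes methylated cytosine. The wild-type group has 2 libraries from tet2wt/wt fish. The sources name no transgene or Cre driver for either group. The fish were aged 4 months by the titles but 15 months by the descriptions, and the study places this comparison at the younger age. Cells were gated by light scatter alone, with no surface or transgenic marker. The study speaks of biological replicate pools for the DNA methylation data of such cells, but the labels do not state the source of each RNA library. The p-values therefore reach no further than the spread between these libraries, which may be technical. Both edgeR and DESeq2 also estimate the spread of a gene partly from other genes. A p-value is thus not a measure of how closely the libraries agree for that gene.

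Total counts were between 8838603 and 10710913 per library. Reads of tet2 itself differed by -0.23 ± 0.22 (log2, SE, edgeR adjusted p = 0.683), which does not check the labels because a small deletion need not lower the RNA. The 12 stem and progenitor marker genes found in the table were all tested. Their summed level ran from 647 to 672 CPM (counts scaled to a library of 1000000 reads, with the trimmed mean of M values) in wild type, and the mutants were at 821 and 589 CPM. The largest parts of these sums were cebpa and tal1. The gene cebpa was at 326 and 255 CPM in wild type and 432 and 268 CPM in the mutants. The gene tal1 was at 181 and 215 CPM in wild type and 214 and 167 CPM in the mutants. Of the 12, 5 had positive and 7 negative log2 fold changes. At an unadjusted edgeR p under 0.05, 2 were higher and 2 lower, against 8.73% and 8.37% of all genes. For edgeR 0 were called higher and 1 lower, against 1.80% and 1.90% of all genes. DESeq2 also called 1 lower, against 0.923%. The gene called lower by both was gfi1ab, at 17 and 19.4 CPM in wild type and 4.91 and 6.59 CPM in the mutants (log2 fold change -1.67, edgeR adjusted p = 5.73e-05). Markers of mature cells were present too. Summed levels reached 2624 to 6697 CPM for neutrophil markers over the 4 libraries. The sum of the 9 erythroid markers was 40753 and 64656 CPM in wild type and lower, at 22203 and 16745 CPM, in the mutants. Most of it came from the globin gene hbaa1, at 34863 and 58449 CPM in wild type and 18703 and 13973 CPM in the mutants. This gene did not pass the test (log2 fold change -1.48, edgeR adjusted p = 0.311). Of the 9 erythroid markers 8 had negative log2 fold changes. At an unadjusted edgeR p under 0.05, 5 were lower, against 8.37% of all genes. By the adjusted rule edgeR called 0 lower, against 1.90%, and DESeq2 1, against 0.923%. Markers of kidney tubule summed to 8.15 and 5.41 CPM in wild type, 37.3 CPM in mutant replicate 1 and 3.16 CPM in mutant replicate 2. The part of all these cells in the differences of the irf genes was not tested. In such bulk libraries, fewer cells of a type and less RNA per cell cannot be told apart.

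The comparison asked which irf transcripts differ in HSPCs when Tet2 lacks catalytic activity. The member irf1b rose in the mutants, where its mean was 277 ± 186 CPM against 72.1 ± 1.04 CPM in wild type (SD, n = 2 each). The log2 fold change was 1.76 with a standard error (SE) of 0.28 and an edgeR adjusted p of 7.57e-05. With DESeq2 the adjusted p was 0.264, and irf1b was not called. The macrophage gene irf8 was 1.56 times as high in the mutants by mean CPM but did not pass the test. The signalling members IRF3, irf7 and irf9 had positive log2 fold changes and the lymphoid members irf4a and irf4b negative ones, and none of these passed. A gene was called at an edgeR adjusted p under 0.05 together with an absolute log2 fold change above 1.

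By this rule 1 of 13 members was called higher and 0 lower, while of all 17242 genes tested 1.80% were called higher and 1.90% lower, 3.71% in all. At an unadjusted edgeR p under 0.05, 6 members were higher and 0 lower, against 8.73% and 8.37% of all genes. DESeq2 called 0 members in either direction, and of the 12896 genes to which it gave an adjusted p it called 0.806% higher and 0.923% lower. Both mutant libraries lay above both wild-type libraries for 6 members, against 23.1% of all genes tested, and below them for 2 members, against 21.7%. The other 5 members overlapped between the genotypes. The median log2 fold change was 0.55 over the members and -0.01 over all genes tested, and 8 members were positive and 5 negative. The reads a gene collects depend on its length, and no transcript length of the build was at hand, so levels are compared between libraries and not between members.

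**Figure D1:**
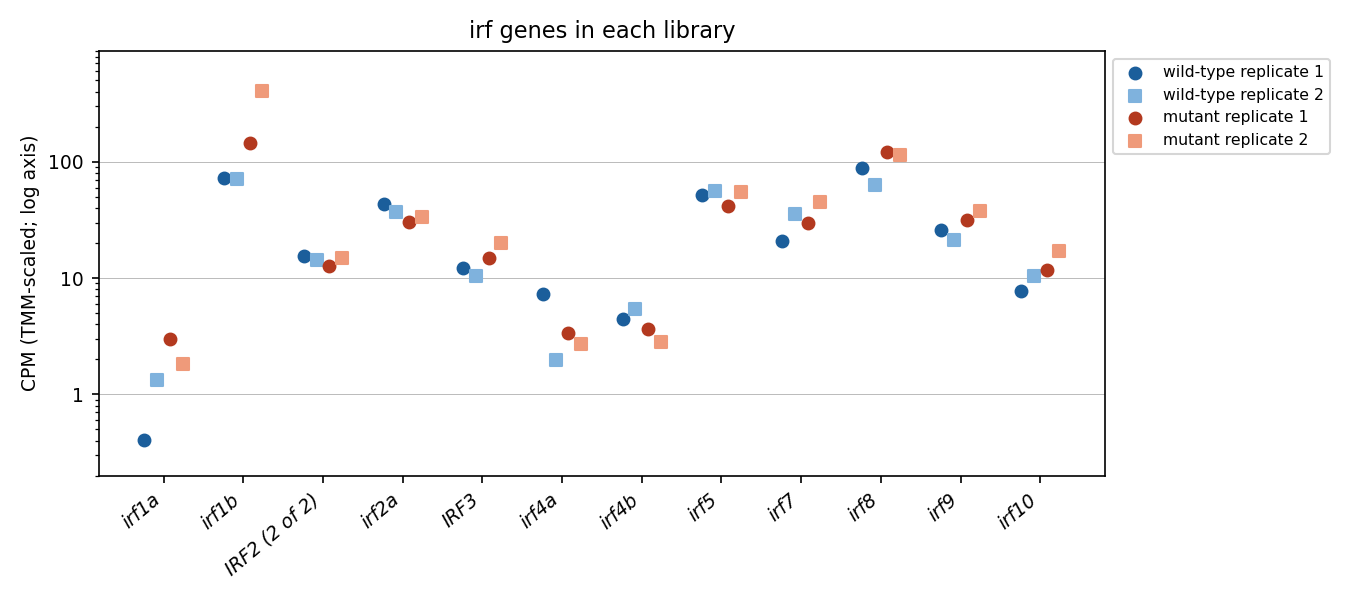
Level of 12 of the irf genes in each of the 4 libraries, in CPM on a log axis. Points are single libraries, blue for wild type and red for mutant, circles for replicate 1 and squares for replicate 2; irf1b stands at 72.9 and 71.4 CPM in wild type and at 145 and 409 CPM in the mutants.

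The gene irf1b encodes a zebrafish copy of IRF1, which in mammals is induced by interferon gamma and activates genes of antigen presentation. It had 715 reads in wild-type replicate 1, 541 in wild-type replicate 2, 1420 in mutant replicate 1 and 4526 in mutant replicate 2. After scaling these were 72.9 and 71.4 CPM in wild type and 145 and 409 CPM in the mutants. The wild-type libraries were nearly equal, both mutants lay above them, and the mutants differed 2.81-fold from each other. Within replicate number 1 the mutant was 1.99 times the wild type, and within number 2 it was 5.72 times. The edgeR SE of 0.28, estimated partly from other genes, does not measure this gap. Counting error is small at this depth, with a ratio of 3.95 on pooled counts and an exact 95% binomial interval of 3.71 to 4.20. Such intervals cover counting error only. Among the 311 genes called higher, irf1b ranked 138 by log2 fold change.

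The call of irf1b depended on the fit. DESeq2 with the block, the study's own test in a later version, gave a log2 fold change of 1.75 ± 0.70 (adjusted p = 0.264, unadjusted p = 0.0125). The bias-adjusted form of the edgeR quasi-likelihood fit gave 1.76 ± 0.35 (adjusted p = 0.0726). Neither called irf1b. The gene was called by edgeR without the replicate block (log2 fold change 1.94, adjusted p = 0.0279) and with robust fitting (adjusted p = 0.0113). Leaving out mutant replicate 2 brought the log2 fold change to 1.01 and leaving out mutant replicate 1 raised it to 2.50. In such fits the lone library of a group is assumed to vary like the 2 libraries of the other group, so their p-values do not measure the spread between the mutant libraries. By the same rule, the share of all genes called either way was 1.73% with DESeq2, 1.14% with the bias-adjusted fit, 1.50% without the block and 3.64% with robust fitting. It was 3.28% with RLE size factors, 3.40% with no filter on low counts and 4.61% with the filterByExpr filter, and irf1b was called in each of these 3 fits. With 1 library left out the share was 3.13% (wild-type replicate 1), 2.47% (wild-type replicate 2), 5.71% (mutant replicate 1) and 2.59% (mutant replicate 2), under the same assumption.

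Of all reads of the 13 genes, irf1b took 20.8% and 21.8% in wild-type replicates 1 and 2, 32.3% in mutant replicate 1 and 54.3% in mutant replicate 2. The summed level of the family was 351 and 328 CPM in wild type, 450.3 CPM in mutant replicate 1 and 753 CPM in mutant replicate 2. Without irf1b the sums were 278 and 257 CPM in wild type and 305 and 344 CPM in the mutants. Most of the gap in the family total between the mutant libraries was therefore in this gene.

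Neutrophil markers moved with the difference between the mutant libraries. All 9 markers were tested, and 8 had positive log2 fold changes. The collagenase gene mmp13a was the 1 called higher and 0 were called lower, against 1.80% and 1.90% of all genes. At an unadjusted edgeR p under 0.05, 7 were higher and 0 lower, against 8.73% and 8.37% of all genes. The median log2 fold change was 0.86. DESeq2 called 0 of the 9. None of the 9 was at 0 in every library. Their summed level was 3885 and 2624 CPM in wild-type replicates 1 and 2, 3375 CPM in mutant replicate 1 and 6697 CPM in mutant replicate 2. In mutant replicate 1 this sum, most of it from the lysozyme gene lyz, lay between those of the wild-type libraries. Taken singly, 3 of the 9 markers (lect2l, mmp13a and npsn) were above both wild-type libraries there, and 8 of 9 were in mutant replicate 2. The part of neutrophil RNA in the level of irf1b in mutant replicate 2 was not tested.

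The identifier under which the table lists irf1b (ENSDARG00000032768) was not in the reference list of current gene names. That list gives the name irf1b to ENSDARG00000043249, which the table calls TXNDC15. TXNDC15 had 106 and 110 reads in wild type and 131 and 185 in the mutants, a log2 change of 0.26 with an edgeR adjusted p of 0.685. The values of irf1b are therefore those of the locus that carried this symbol in the authors' annotation. In the RefSeq gene list of another assembly, the nearest genes on either side of the gene now called irf1b that the table also names are ACSL6, with 1 and 0 reads in wild type and 4 and 1 in the mutants, and SEC24A, at 0.08 on the log2 scale (edgeR adjusted p = 0.907). Over all 13 members, 20 such neighbours were tested. Of these 0 were called by edgeR or by DESeq2, which called 3.71% and 1.73% of all genes either way. At an unadjusted edgeR p under 0.05 there were 4, against 8.73% higher and 8.37% lower of all genes. These 4 were MPC1 beside irf1a, dusp22b and si:dkey-25e12.3 beside irf4a and irf4b, and mitfb beside irf10, named after their values were seen. Of them si:dkey-25e12.3 passed on the adjusted p (edgeR, 0.00994) but at 0.96 was short of the fold threshold.

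The paralog irf1a was far less covered. It had 4 and 10 reads in wild type, and 29 and 20 reads in the mutants, with replicate 1 first. These are 0.408 and 1.32 CPM in wild type and 2.97 and 1.81 CPM in the mutants, so the groups did not overlap. The log2 fold change of 1.53 ± 0.67 (SE) did not pass the test (edgeR adjusted p = 0.219). It ranged from 0.82 (wild-type replicate 1 removed) to 2.50 (wild-type replicate 2 removed). On pooled counts the ratio was 2.92, with an exact 95% binomial interval of 1.59 to 5.73. The library with the most irf1b was not the one with the most irf1a. The log2 ratio of irf1b over irf1a counts was 7.48 and 5.76 in wild type and 5.61 and 7.82 in the mutants. Its mean differed by 0.10 between genotypes (exact permutation test, two-sided, p = 1), and with 2 libraries against 2 this test cannot go below p = 0.333.

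IRF2 is known in mammals as a factor that occupies the sites of IRF1 and can repress its targets. Of its zebrafish copies, irf2a was at 43.7 and 36.8 CPM in wild type and at 30.3 and 33.6 CPM in the mutants. Both mutants lay below both wild-type libraries, but the log2 fold change of -0.33 ± 0.21 (SE) did not pass the test (edgeR adjusted p = 0.451). The other copy, IRF2 (2 of 2), now named irf2b, was at 15.6 and 14.3 CPM in wild type and 12.6 and 14.8 CPM in the mutants, and the groups overlapped. Its log2 fold change was -0.13 ± 0.24 (edgeR adjusted p = 0.867). The log2 ratio of irf2a over IRF2 (2 of 2) counts was 1.49 and 1.37 in wild type and 1.27 and 1.18 in the mutants. The difference of -0.20 gave the smallest p this design allows (exact permutation test, two-sided, p = 0.333).

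**Figure D2:**
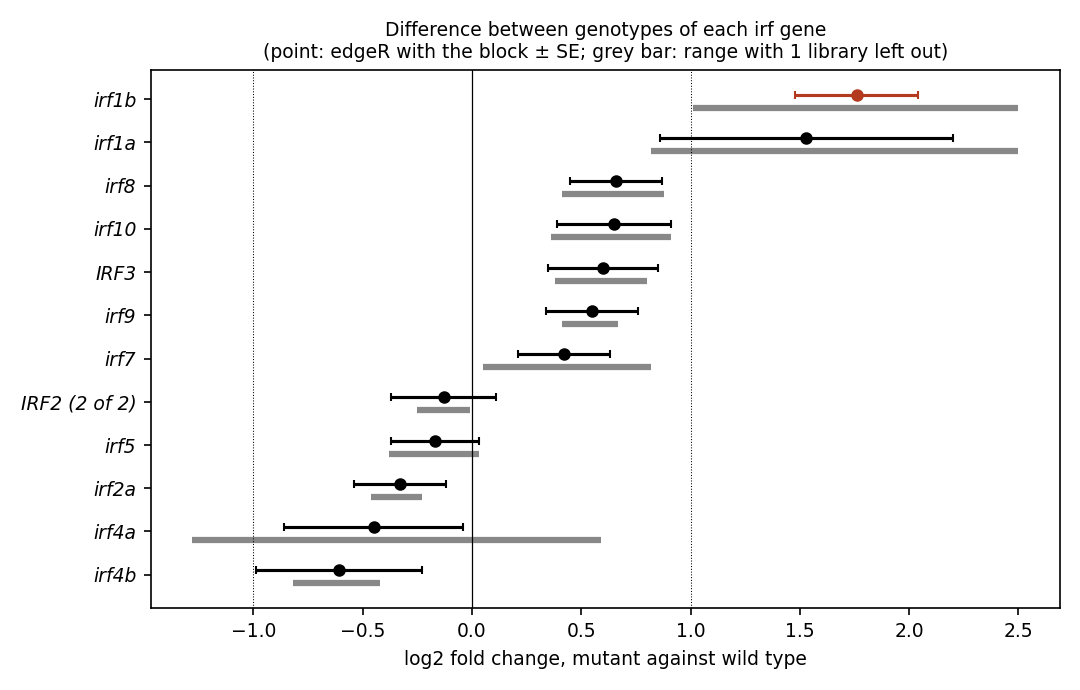
Log2 fold change between mutant and wild type for 12 of the irf genes. Points are the edgeR fit with the replicate block with standard errors, red where called; grey bars span the values with 1 library left out; dotted lines mark the fold threshold. The point of irf1b is at 1.76 and its bar runs from 1.01 to 2.50, while the bars of irf4a and irf5 cross 0.

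IRF3 and IRF7 are the factors that kinases downstream of nucleic acid sensors phosphorylate, after which they switch on interferon genes. IRF3 was at 12.2 and 10.4 CPM in wild type and at 14.8 and 19.9 CPM in the mutants. The groups did not overlap, and the log2 difference was 0.60 ± 0.25 (SE, edgeR adjusted p = 0.186). The gene irf7, itself interferon-induced in fish and mammals, was at 20.9 and 35.4 CPM in wild type and 29.5 and 44.9 CPM in the mutants. Here the replicate 2 library was the higher one in both genotypes, and the groups overlapped. The ratio of mutant to wild type was 1.41 within number 1 and 1.27 within number 2, and the log2 difference was 0.42 ± 0.21 (SE, edgeR adjusted p = 0.296). With 1 library left out the value for irf7 ran from 0.05 (wild-type replicate 1 removed) to 0.82 (wild-type replicate 2 removed).

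The gene irf9 encodes the DNA-binding subunit of the complex that interferon receptors assemble with STAT proteins. It was at 25.8 and 21.4 CPM in wild type and 31.4 and 37.7 CPM in the mutants. Both mutants lay above both wild-type libraries, a log2 difference of 0.55 ± 0.21 (SE, edgeR adjusted p = 0.151). Of its partners, stat2, chosen for its role after its values were seen, differed by 0.28 ± 0.22 (log2, SE, edgeR adjusted p = 0.592).

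The gene irf5 encodes a factor that acts with MyD88 downstream of toll-like receptors in mammals. It was at 51.7 and 56.0 CPM in wild type and 41.4 and 55.0 CPM in the mutants, so the groups overlapped. Its log2 fold change was -0.17 ± 0.20 (SE, edgeR adjusted p = 0.755). The gene irf10 belongs to a branch of the family that fish and birds keep and that humans and mice lack. It was at 7.74 and 10.4 CPM in wild type and at 11.7 and 17.1 CPM in the mutants, without overlap. Its log2 fold change of 0.65 ± 0.26 did not pass (edgeR adjusted p = 0.155), and the ratio of mutant to wild type was 1.51 within replicate number 1 and 1.64 within number 2.

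The gene irf8 directs myeloid precursors to macrophages in zebrafish, at the cost of neutrophils. It had 867 and 480 reads in wild type, and 1196 and 1264 reads in the mutants. It stood at 88.3 and 63.3 CPM in wild type and at 122 and 114 CPM in the mutants. Both mutants lay above both wild-type libraries, and here the mutants were the closer pair. For irf8 the log2 fold change was 0.66 ± 0.21, with an edgeR adjusted p of 0.0654. Robust fitting gave an adjusted p of 0.0457 at the same fold change, short of the fold threshold, and DESeq2 gave 0.299. With 1 library left out the log2 fold change was between 0.41 (wild-type replicate 2 removed) and 0.88 (wild-type replicate 1 removed).

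Macrophage markers did not move one way beside irf8. The list matched 21 genes, because the table holds many copies of mfap4, and of the 19 tested 3 were called higher and 5 lower, against 1.80% and 1.90% of all genes. DESeq2 called 2 higher and 2 lower, against 0.806% and 0.923%. Apart from mpeg1 and csf1ra, all the called ones were copies of mfap4. The gene mpeg1, which encodes a pore-forming protein of macrophages, was at 21.0 and 19.4 CPM in wild type and 45.9 and 52.4 CPM in the mutants. By contrast csf1ra, the receptor of macrophage colony-stimulating factor, was at 31.4 and 13.1 CPM in wild type and 12.4 and 5.78 CPM in the mutants. The summed level was 545 and 429.5 CPM in wild type and 432 and 435 CPM in the mutants. The markers c1qc and 1 copy of mfap4 were at 0 in every library. Reads of near-identical mfap4 copies may have been split between them, and the part of macrophage RNA in the level of irf8 was not tested.

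IRF4 acts in lymphocytes, where it drives B cell maturation and the plasma cell fate in mammals. The copy irf4a had 72 and 15 reads in wild type and 33 and 30 reads in the mutants, which are 7.34 and 1.98 CPM against 3.38 and 2.71 CPM. The wild-type libraries differed 3.71-fold and enclosed both mutants. The log2 fold change of -0.45 ± 0.41 (SE, edgeR adjusted p = 0.673) became 0.59 without wild-type replicate 1. The copy irf4b was at 4.48 and 5.41 CPM in wild type and 3.68 and 2.80 CPM in the mutants. Both mutants lay below both wild-type libraries, and the log2 fold change was -0.61 ± 0.38 (edgeR adjusted p = 0.445). The log2 ratio of irf4a over irf4b counts was 0.71 and -1.45 in wild type and -0.13 and -0.05 in the mutants, a mean difference of 0.28 (exact permutation test, two-sided, p = 1).

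B cell markers were lower in the same mutant libraries. Of 10 markers, 9 were tested and 7 were called lower, against 1.90% of all genes, among them pax5, the factor that fixes B cell identity, and cd79a, a subunit of the B cell receptor. DESeq2 called 4 lower, pax5 among them but not cd79a, against 0.923% of all genes. The other tested markers, btk and blnk, had log2 fold changes of 0.04 and -0.10. The summed level was 319 and 264 CPM in wild type and 157 and 160.4 CPM in the mutants, and none of the 10 was at 0 in every library. The part of B cells in the levels of irf4a and irf4b was not tested.

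The genes around the family in the same pathway were described by lists. Of the sensors, adaptors and kinases upstream of IRF3 and IRF7, 24 were tested, 1 was called higher and 0 lower, against 1.80% and 1.90% of all genes. At an unadjusted edgeR p under 0.05 there were 2 higher and 2 lower, against 8.73% and 8.37%, and DESeq2 called 0. The median log2 fold change was 0.03. The called gene was irak3, an inhibitor of toll-like receptor signalling. It was at 11.5 and 14.1 CPM in wild type and 18.6 and 40.8 CPM in the mutants (log2 fold change 1.12 ± 0.24, SE, edgeR adjusted p = 0.00262). Neither DESeq2 (adjusted p = 0.13) nor edgeR without the block (adjusted p = 0.0978) called it, and without mutant replicate 2 its value dropped to 0.54. The kinase gene tbk1, which phosphorylates IRF3 and was chosen for this role after its values were seen, was at 79.3 and 85.5 CPM in wild type and 77.1 and 86.3 CPM in the mutants. Its log2 fold change was -0.01 ± 0.21 (edgeR adjusted p = 0.985). The kinase gene irak4, likewise named after its values were seen, was at 17.3 and 27.7 CPM in wild type and 10.6 and 11.9 CPM in the mutants. It passed on the adjusted p (edgeR, 0.0106) but at -0.97 stayed short of the fold threshold. With DESeq2 the adjusted p of irak4 was 0.291.

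Of the interferons, receptors, JAKs, STATs and feedback genes, 22 were tested, 3 were called higher and 0 lower, against 1.80% and 1.90% of all genes, with a median log2 fold change of 0.21. At an unadjusted edgeR p under 0.05 there were 5 higher and 2 lower, against 8.73% and 8.37%, and DESeq2 called 1 higher and 0 lower, against 0.806% and 0.923%. The called genes included socs1, an inhibitor of JAK kinases, and crfb17, a receptor chain for interferon gamma. The gene that DESeq2 called was neither of these. The gene socs1 was at 3.77 and 2.64 CPM in wild type and 8.70 and 8.22 CPM in the mutants, with a log2 difference of 1.40 ± 0.33 (edgeR adjusted p = 0.008), but DESeq2 did not call it (adjusted p = 0.324). It did not call crfb17 either (adjusted p = 0.403), whose log2 fold change of 1.90 became 0.88 without mutant replicate 1. The interferon ligands themselves were scarce. The type I interferon gene ifnphi1 was at 5.50 and 4.62 CPM in wild type and 4.81 and 6.86 CPM in the mutants, and the interferon gamma gene listed as ifng1-2 had 0 and 2 reads in wild type and 1 and 15 in the mutants.

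Of the partners and regulators of IRF proteins, 16 were tested, 1 was called higher and 0 lower, against 1.80% and 1.90% of all genes, with a median log2 fold change of -0.17. At an unadjusted edgeR p under 0.05 there were 2 higher and 2 lower, against 8.73% and 8.37% of all genes, and DESeq2 called 0. The called gene, batf3, encodes a factor that binds DNA with IRF4 or IRF8 in mammals. It was at 0.815 and 1.06 CPM in wild type and 1.53 and 6.14 CPM in the mutants (edgeR adjusted p = 0.0434), and its log2 fold change of 1.81 became 0.72 without mutant replicate 2. DESeq2 did not call it (adjusted p = 0.596). The repressor gene bcl6a was named after its values were seen. It was at 24.0 and 20.2 CPM in wild type and 11.5 and 10.9 CPM in the mutants. At a log2 value of -0.98 (edgeR adjusted p = 0.00821) it was also short of the fold threshold. With DESeq2 the adjusted p of bcl6a was 0.258. The PU.1 genes spi1 and spi1l, whose products bind with IRF8 and IRF4 and which were chosen after their values were seen, had log2 fold changes of -0.13 and 0.25. The IRF2-binding protein genes irf2bp1, irf2bp2a, irf2bp2b and IRF2BPL, chosen in the same way, had values of 0.36, 0.10, -0.09 and -0.22, with edgeR adjusted p of 0.369, 0.885, 0.91 and 0.736.

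**Figure D3:**
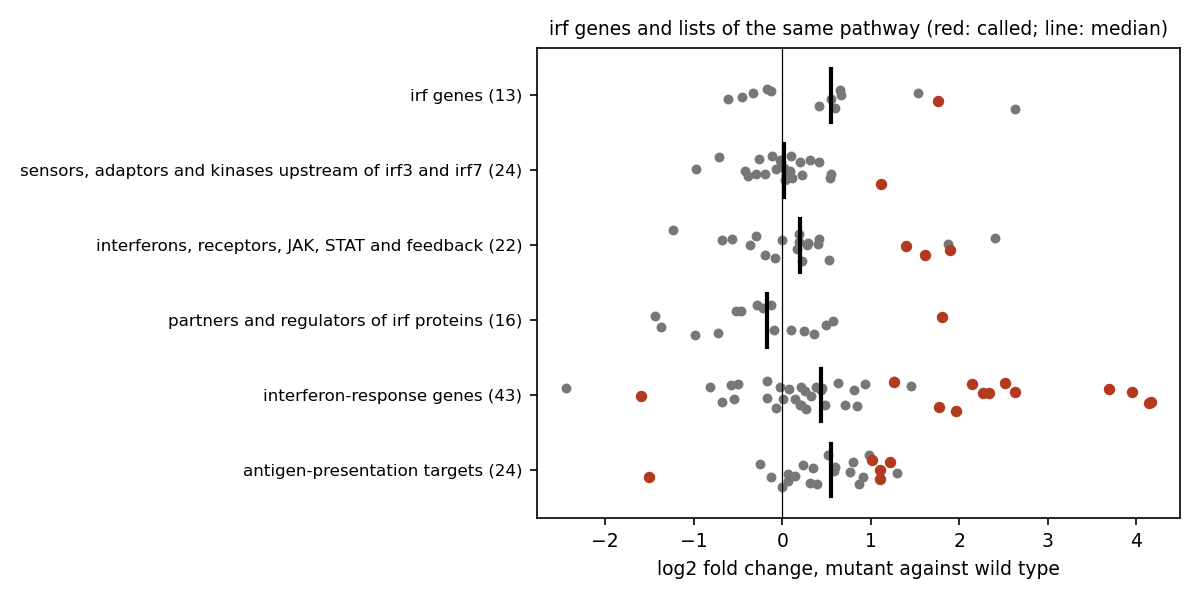
Log2 fold change between mutant and wild type for the irf genes and for the tested genes of 5 lists of the same pathway, with the number of genes in parentheses. Each point is 1 gene, red where called, and black lines are medians; the median is 0.55 for the irf genes, 0.03 for the upstream sensors and kinases and 0.44 for the interferon-response genes.

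Downstream, 43 interferon-response genes were tested. Of these 12 were called higher and 1 lower, against 1.80% and 1.90% of all genes, and the median log2 fold change was 0.44. At an unadjusted edgeR p under 0.05 there were 19 higher and 4 lower, against 8.73% and 8.37%, and DESeq2 called 9 higher and 0 lower, against 0.806% and 0.923%. The called genes with the largest absolute log2 fold changes were 3 copies of ifi44, an interferon-induced gene of unknown biochemical function, together with mxc and IFITM10. Of these the copy si:dkeyp-9d4.2 was at 0.815 and 0.528 CPM in wild type and 6.34 and 23.1 CPM in the mutants. The antiviral GTPase gene mxc was at 1.43 and 2.11 CPM in wild type and 13.8 and 48.1 CPM in the mutants, and IFITM10, whose identifier is now named ifitm1, was at 1.63 and 1.32 CPM in wild type and 14.5 and 26.2 CPM in the mutants. In each of these 5 genes mutant replicate 2 was above mutant replicate 1, as it was for irf1b. Not all members went the same way. The gene called lower was the Mx copy mxd, at 6.93 and 2.90 CPM in wild type and 0.921 and 2.17 CPM in the mutants (edgeR adjusted p = 0.048). The ubiquitin-like modifier gene isg15 was at 3.77 and 1.85 CPM in wild type and 0 and 1.08 CPM in the mutants and did not pass (edgeR adjusted p = 0.0656). Both were named after their values were seen, and similar Mx or ifi44 copies may have exchanged reads. The study described the interferon theme from these same samples, so the list is not independent evidence of it.

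Of 24 antigen-presentation genes tested, 4 were called higher and 1 lower, against 1.80% and 1.90% of all genes, and the median log2 fold change was 0.56. At an unadjusted edgeR p under 0.05 there were 11 higher and 1 lower, against 8.73% and 8.37%. DESeq2 called 3 higher and 0 lower, against 0.806% and 0.923%. The gene b2m, the light chain of MHC class I, was at 564 and 517 CPM in wild type and 936 and 1429 CPM in the mutants (log2 difference 1.1 ± 0.33, edgeR adjusted p = 0.0394). The immunoproteasome gene psmb9a was at 43.0 and 37.7 CPM in wild type and 60.1 and 124 CPM in the mutants (edgeR adjusted p = 0.00321). DESeq2 did not call psmb9a (adjusted p = 0.0543). The related psmb10, now psmb13a, differed by 1.01 (log2, edgeR adjusted p = 0.00307). Without mutant replicate 2 these values were 0.79, 0.57 and 0.65 for b2m, psmb9a and psmb10, and none was called. A separate gene listed as PSMB10 was at 22.2 and 26.3 CPM in wild type and 22.2 and 42.1 CPM in the mutants. It was not called (log2 fold change 0.35, edgeR adjusted p = 0.464). The class I heavy chain gene mhc1uba was at 18.8 and 13.7 CPM in wild type and 37.5 and 37.7 CPM in the mutants (log2 fold change 1.22, edgeR adjusted p = 3.44e-04). Another class I gene, zgc:136614, now mhc1zca, was called lower at -1.50 ± 0.45 (log2, SE, edgeR adjusted p = 0.0384), but DESeq2 did not call it (adjusted p = 0.577).

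The pattern of irf1b over the libraries was compared with that of 119 genes of these 5 lists with a mean of at least 1 CPM. Likeness was the root mean square difference of the deviations of log2(CPM + 1) from the mean of each gene over the 4 libraries. The 3 closest named by the rule were zgc:153654, an ifi44 copy now named ifi44c2, at 0.21, gbp1, an interferon-induced GTPase gene, at 0.22, and lgals9l1, a galectin gene, at 0.23, with the next gene at 0.23 to the same precision. The deviations of irf1b were -0.86 and -0.89 in wild type and 0.13 and 1.61 in the mutants. Those of gbp1 were -0.86 and -1.23 in wild type and 0.39 and 1.70 in the mutants. All 3 genes were low in both wild-type libraries, intermediate in mutant replicate 1 and highest in mutant replicate 2. They were chosen for likeness to irf1b, so this shared order follows from the choice. Genes outside the 5 lists were not compared. With 4 libraries such likeness is a description, and all values share the same library scaling.

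**Figure D4:**
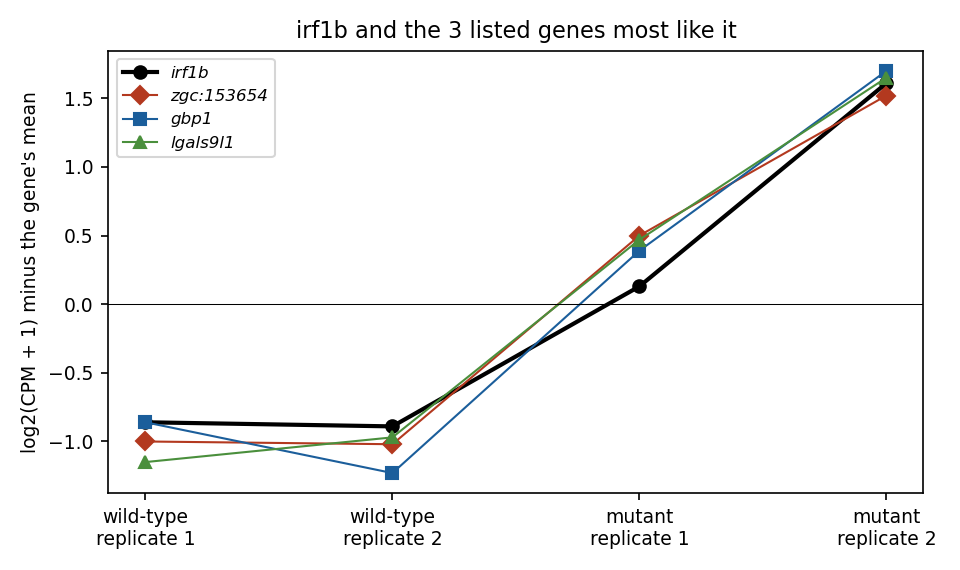
Deviation of log2(CPM + 1) from the mean over the 4 libraries for irf1b (black, thick line) and the 3 listed genes most like it. Each point is 1 library; irf1b is at -0.86 and -0.89 in wild type and at 0.13 and 1.61 in mutant replicates 1 and 2, and lines only join the points of a gene.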

How the data were processed

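RNA was sequenced from sorted kidney marrow progenitor cells in 4 libraries, grouped and numbered by the sample titles. Per the labels, reads went through FastQC 0.10.1, STAR 2.3.0 for alignment to Zv9 and bedtools 2.16.1 for counting over Ensembl genes. The deposited values are raw counts, not normalized by the authors. How strand, multi-mapping reads and overlaps were treated is not stated in the sources, so copies and neighbours can share reads. The table holds 32434 genes, and 0 of its columns had no sample.

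Genes with more than 5 reads in all were kept and scaled by TMM. They were tested two-sided with the quasi-likelihood F-test of edgeR 4.0.16 (R 4.3.3, older form of the fit), with a replicate term (block). The study fitted such a term in DESeq2, which stands here among the alternatives. P-values were Benjamini-Hochberg adjusted over 17242 genes. Standard errors were taken as |log2 fold change| divided by the root of F. Alternatives were DESeq2 1.42.0, edgeR without the block, the bias-adjusted, robust, RLE, unfiltered and filterByExpr fits, and leaving out each library, without the block. Some of the fits were also run on simulated counts. These had no replicate effect and the same spread in both genotypes. They therefore cannot judge the block or a gene whose mutant libraries differ more than its wild-type libraries. Marker and pathway lists were matched by the table's symbols, by current symbols of the identifiers (20769 identifiers of the table and 11 of the 13 members are in the name list) or by an older symbol. The RefSeq gene list, on assembly GRCz12tu, was used only for names and neighbours.

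The rule for named genes took every member, tet2, up to 5 called genes per pathway list by absolute log2 fold change, and the 3 listed genes most like irf1b. Single-gene results of some of these are not reported here, while counts over the family and lists include them. Members, lists and tests were chosen with earlier results of these data known. No pair of libraries agreed within sampling noise (chi-square over its degrees of freedom 19.6 to 74.8). The study's DNA methylation data were not analysed here.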

Additional observations from a re-analysis of the deposited data

How the results depend on the processing

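Of the irf genes, irf1b was called higher in 5 of the 7 alternatives on all 4 libraries, and in the 4 with 1 library left out, where the lone library of a group is assumed to vary like the other group. The number of members called higher was 0 with DESeq2 and 0 with the bias-adjusted fit. The study calls its replicate term a batch correction variable for differences between replicates. The labels do not state that libraries of the same number share a batch. Deviations of same-numbered libraries from their genotype means correlated at 0.159 over 12928 genes, as a description. Without the replicate block 121 genes were called higher and 137 lower, DESeq2 called 104 and 119, and the bias-adjusted fit 89 and 108, against 311 and 328. With 1 library left out the counts ran from 188 to 462 higher and from 224 to 478 lower. Over the pathway lists, 21 genes were called higher and 2 lower in the main fit. Without the block they were 12 and 0, with DESeq2 13 and 0, and with the bias-adjusted fit 8 and 0. Of all genes, 3.71% were called either way in the main fit and 1.50% without the block. That share was 1.73% with DESeq2 and 1.14% with the bias-adjusted fit. The number of list genes lower was 1 with robust fitting, 0 with RLE size factors and 1 with the filterByExpr filter. In these 3 fits 3.64%, 3.28% and 4.61% of all genes were called either way. With 1 library left out these lists had 12 to 28 genes higher and 2 to 4 lower.

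Some small values changed sign with 1 library left out. The log2 fold change of irf4a ran from -1.28 to 0.59, that of irf5 from -0.38 to 0.03, tbk1 from -0.10 to 0.07, stat2 from -0.01 to 0.54, spi1 from -0.37 to 0.11, spi1l from -0.09 to 0.59, irf2bp2a from -0.21 to 0.40 and irf2bp2b from -0.43 to 0.22. The difference in the log2 ratio of irf1b over irf1a ran from -1.01 to 1.2, and that of irf4a over irf4b from -0.80 to 1.36. Adding 0.5 to each count kept the direction of the 3 paralog differences. Of 18 called genes that the naming rule took from the lists, 12 were called by DESeq2 and 6 in all 11 alternatives. The causes were not tested. Counts of irf1a and the irf4 copies were below 100 in every library, and the part of depth in their values was not tested.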
